A study of Homo sapiens with 24 samples.

Results

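Immediate early genes are a class of genes that cells transcribe within minutes of a signal, without making new protein first. The 10 chosen by name here were FOS, FOSB, FOSL1 and FOSL2 of the FOS family, JUN and JUNB of the JUN family, the zinc finger factors EGR1 and EGR3, the orphan nuclear receptor NR4A1 and the regulator IER2. All 10 were among the 61544 identifiers of the organoid table, and all 10 were tested. In the table of neural progenitor cells (NPCs), 6 of the 10 were among the 10221 genes listed, and all 6 were tested. FOS, EGR1, EGR3 and IER2 had no row there and were not analysed here in the NPCs.

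RNA was poly(A) selected and sequenced in day 30 cerebral organoids, which are three-dimensional neural cultures, and in NPCs, both made from the human embryonic stem cell line H9. In each system the libraries titled sh1 and sh4 are labelled KDM2A knockdown; KDM2A is a demethylase of histone H3 lysine 36. The titles and design text give short hairpin RNAs and the protocol a lentivirus, while the treatment labels name siRNA-1 and siRNA-4, which are taken here to be the hairpins sh1 and sh4. The libraries titled NC are labelled WT and had a scrambled hairpin. The organoids had 3 libraries per group and the NPCs 5. Virus was given to the undifferentiated stem cells, which were selected in puromycin at 1 µg/ml, so all groups, NC included, came through infection and selection of 1 cell line before they were differentiated. Whether replicate libraries stem from different cultures is not stated in the labels, so a p-value here measures the spread between libraries, and that spread may be technical.

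FOS and JUN proteins pair through leucine zippers to form AP-1, a transcription factor that binds the same short DNA site in many genes of growth, matrix turnover and migration. Growth factors acting through MAP kinases switch these genes on through serum response factor at CArG boxes and through CREB family factors at cyclic AMP response elements (CREs). FOSL1 and FOSL2, unlike FOS and FOSB, lack a strong activation domain and are known as slower, more lasting partners of JUN proteins, and in neurons FOS, EGR1, EGR3 and NR4A1 are classic markers of recent activity.

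The promoters show what these genes have in common in sequence. The RefSeq promoter table (GRCh38.p14) held 9 promoters of 8 of the 10 genes, each from 250 bases before to 50 bases after a transcription start. The short CRE core, TGACG on either strand, lay before the start in 7 of the 8 genes, against 21.2% of the 35116 promoters in that table. NR4A1 was the gene without one in these windows, at either of its 2 listed starts. One stretch per gene is printed 5′ to 3′ on the gene's own strand, with the core in capitals (CGTCA where it lies on the other strand), because this is the element that most of them share. In EGR1 both CArG boxes are in capitals too.
FOS, chr14:75278751-75278780, plus strand: gtggttgagcccgTGACGtttacactcatt
FOSB, chr19:45467923-45467952, plus strand: agcaaggggcgggTGACGtaagcagggggg
FOSL2, chr2:28392779-28392808, plus strand: tggagtctggggtTGACGtgagtgaatcca
JUN, chr1:58784154-58784183, minus strand: ggagtctccatggTGACGggcgggcccgcc
JUNB, chr19:12791336-12791365, plus strand: cgcttcctgacagTGACGcgagccgcctcc
IER2, chr19:13150258-13150287, plus strand: ccacccccgccccCGTCAcgccaccatcga
EGR1, chr5:138465368-138465423, plus strand: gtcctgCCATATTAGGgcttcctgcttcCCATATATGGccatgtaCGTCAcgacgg

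In FOS, FOSB and FOSL2 the printed core began 64, 60 and 66 bases before the start, and in EGR1 the nearer of its 2 cores began 66 bases before. In JUN, JUNB and IER2 it lay farther out, beginning 123, 137 and 140 bases before. None of the 8 genes held the whole CRE TGACGTCA, which 1.85% of all promoters hold over the full window of 300 bases. Within these windows, EGR1 was the one with CArG boxes, at 105 and 83 bases before the start (1.29% of all promoters hold a box). It was also the one with a match to the EGR site GCGNGGGCG, 198 bases before the start (9.43% of all promoters). FOSL2 was the one with an AP-1 site, TGANTCA, which lay just after its start (7.71% of all promoters). Both strands were searched, a core inside a whole CRE was counted as both, and a match is a run of letters and not evidence of binding. Elements outside these windows, or with other letters, were not searched, so a gene without a match here may still hold one.

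Levels are given in CPM, the usual library-scaled counts, after TMM scaling, which takes most genes as unshifted. A gene was called where its adjusted p was under 0.05 and its log2 fold change at least 1 in size. KDM2A itself averaged 92.1 ± 4.15 CPM in sh1 NPCs and 95.1 ± 4.21 in sh4 NPCs, against 186 ± 15.3 in NC NPCs (SD, n = 5 each), with log2 fold changes of -1.02, just past the fold threshold, and -0.97, just under it. Those calls turned without NC replicate 1 or 3 (-0.99 and -0.98 in sh1) and, in sh4, without NC replicate 5 (-1.01) and with library size in place of TMM (-1.11). In the organoids it averaged 110 ± 6.97 CPM in sh1 and 101 ± 4.89 in sh4, against 100.5 ± 4.00 in NC (SD, n = 3 each), with log2 fold changes of 0.14 and 0.01 (edgeR adjusted p = 0.127 and 0.926). The target therefore gives no check of the organoid labels, and every organoid direction below belongs to the libraries labelled sh1 and sh4. The NPC table cannot be read as an open survey: between sh1 and NC 99.3% of its tested genes had an adjusted p under 0.05, against 27.6% between sh1 and sh4. Totals were 15.9 to 18.9 M counts in the organoids and, over the listed genes alone, 12.7 to 20.2 M in the NPCs. Organoid sh4 replicate 1 and NPC NC replicate 5 stood farthest from their own groups, with a chi-square for each degree of freedom of up to 52.4 and 33.2 between replicates. Without organoid sh4 replicate 1, the 3 genes called in sh4 over NC kept their calls, and 2 in place of 3 were called in sh1 over sh4. Without NPC NC replicate 5, the calls of the 6 genes over NC were kept.

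In organoids labelled sh1, 4 of the 10 genes fell, FOS, FOSB, FOSL1 and NR4A1, and none rose past both thresholds in edgeR or in DESeq2. Another 3 (FOSL2, JUN and EGR1) were higher at an edgeR adjusted p under 0.05, short of the fold threshold. Of all 19704 organoid genes tested, 7.92% were called lower and 12.1% higher in that comparison. In organoids labelled sh4, FOSL1 and NR4A1 fell and FOSL2 rose, where 15.5% of all genes were called lower and 20% higher. Both comparisons share the 3 NC libraries. The median log2 fold change of the 10 genes was -0.38 in sh1 and -0.48 in sh4, against 0.02 and -0.01 over all genes tested. An adjusted p under 0.05 without regard to fold was reached by 46.7% of all genes in sh1 and by 67.9% in sh4. Between sh1 and sh4, FOS, FOSB and FOSL2 were called lower in sh1 (11.2% of all genes) and none of the 10 higher (7.83%) in edgeR or DESeq2. Another 3 (JUN, NR4A1 and IER2) were higher in sh1 at an edgeR adjusted p under 0.05, short of the fold threshold. JUNB was lower in sh1 in the same way (log2 difference -0.97). In either direction 19% of all genes were called, and 49.9% had an adjusted p under 0.05.

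FOS, the founding member of the family and the usual partner of JUN, separated the hairpins. It had 4.22, 2.36 and 4.17 CPM in the sh1 libraries, 18.4, 13.4 and 17.4 CPM in the sh4 libraries, and 16.8, 13.01 and 11.2 CPM in the NC libraries. All sh1 libraries lay far under all others, while sh4 and NC overlapped. The log2 fold change over NC was -1.93 in sh1 (SE 0.247, edgeR adjusted p = 0.000225), which is 0.263 times the NC level. In sh4 it was 0.26, with a 95% interval of -0.25 to 0.77 (edgeR adjusted p = 0.330). The sh1 and sh4 libraries differed from each other by -2.19 (edgeR adjusted p = 0.000181), and this call held in every alternative run.

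FOSB, the close relative of FOS, was scarce, at 6 to 41 counts per library. Its level was 0.329, 0.330 and 0.603 CPM in sh1, 0.520, 1.65 and 1.26 CPM in sh4, and 2.26, 1.97 and 2.35 CPM in NC. Every library of either hairpin lay under every NC library, and the sh4 libraries ranged from the level of sh1 almost to that of NC. The log2 fold change was -2.36 in sh1 (SE 0.440, edgeR adjusted p = 0.00190) and -0.93 in sh4 (SE 0.398, edgeR adjusted p = 0.0617), where sh4 was not called. The sh4 value was called, at -1.28, without sh4 replicate 2, the highest of the 3, and at -1.18 with library size in place of TMM. The difference of sh1 from sh4, -1.43 (edgeR adjusted p = 0.0258), was lost with library size alone, in a fit of only those 6 libraries, and without sh1 replicate 1 or 2 or sh4 replicate 2 or 3.

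FOSL1, also known as FRA-1, showed the deepest fall of the 10. It had 0.658, 0.220 and 0.164 CPM in sh1 and 0.195, 0.529 and 0.360 CPM in sh4, against 3.81, 2.61 and 3.11 CPM in NC. These are 3 to 12 counts per library labelled sh1 or sh4 and 49 to 69 counts in NC, with no overlap. The log2 fold changes were -3.17 in sh1 (SE 0.487, edgeR adjusted p = 0.000637) and -3.10 in sh4 (SE 0.490, edgeR adjusted p = 0.000325). Between sh1 and sh4 the difference was -0.07 with a 95% interval of -1.37 to 1.23, too wide at these counts to show whether they were alike.

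FOSL2, or FRA-2, went the other way. Its level was 72.5, 54.8 and 89.2 CPM in sh1, 160, 124 and 156 CPM in sh4, and 29.5, 49.9 and 34.3 CPM in NC. The groups formed 3 steps without overlap, sh4 highest and NC lowest. The log2 fold change was 1.95 in sh4 (SE 0.222, edgeR adjusted p = 3.71e-05) and 0.93 in sh1 (SE 0.218, edgeR adjusted p = 0.00660). The sh1 value fell short of the fold threshold, and passed it at 1.10 without sh1 replicate 2 and at 1.18 without NC replicate 2. The difference of sh1 from sh4 was -1.03 (edgeR adjusted p = 0.00355) and came under the threshold at -0.79 with library size alone and without sh1 replicate 2 or sh4 replicate 1 or 3.

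JUN and JUNB, which can pair with FOS proteins or with each other, moved less. JUN had 213, 200.5 and 207 CPM in sh1, 104, 136 and 120 CPM in sh4, and 167, 158 and 162 CPM in NC. All sh1 libraries lay above NC and all sh4 libraries under it, with log2 fold changes of 0.35 in sh1 and -0.43 in sh4 (edgeR adjusted p = 0.00897 and 0.00159), both under the fold threshold. The distance between sh1 and sh4 was 0.79 (edgeR adjusted p = 0.000181), and 1.01 with library size alone.

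JUNB, often a weaker activator than JUN, had 19.3, 15.5 and 19.0 CPM in sh1, 35.3, 36.2 and 33.7 CPM in sh4, and 20.5, 18.7 and 17.9 CPM in NC. The sh4 libraries stood apart from both other groups, which overlapped. Its log2 fold change was 0.88 in sh4 (SE 0.103, edgeR adjusted p = 4.60e-05) and -0.09 in sh1, with a 95% interval of -0.32 to 0.15 (edgeR adjusted p = 0.516). Sh1 stood at -0.97 against sh4 (edgeR adjusted p = 0.000152), and just past the fold threshold at -1.002 with DESeq2's size factors and at -1.02 and -1.05 without sh1 replicate 1 or 3. In the annotation used, 14.2% of its exon bases overlap HOOK2 on the opposite strand, and reads of both genes cannot be told apart if counting ignored strand, a setting that no source used here states.

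NR4A1, a nuclear receptor known as NUR77, fell with each hairpin. It had 12.998, 14.3 and 13.7 CPM in sh1 and 7.53, 11.5 and 7.31 CPM in sh4, against 42.3, 44.5 and 39.9 CPM in NC. No library overlapped with NC, and all sh4 libraries were under all sh1 libraries. The log2 fold changes were -1.63 in sh1 (SE 0.155, edgeR adjusted p = 4.01e-05) and -2.26 in sh4 (SE 0.162, edgeR adjusted p = 2.35e-06). Sh1 stood 0.64 above sh4 (edgeR adjusted p = 0.00954), under the fold threshold.

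EGR1, which links growth signals to transcription, was higher in every library of either hairpin without being called. It had 15.4, 12.6 and 13.2 CPM in sh1 and 15.0, 16.4 and 10.3 CPM in sh4, against 8.23, 7.36 and 9.21 CPM in NC. The log2 fold changes of 0.73 in sh1 and 0.75 in sh4 had edgeR adjusted p = 0.00895 and 0.00469 but were under the fold threshold. Sh1 and sh4 differed by -0.02, with a 95% interval of -0.42 to 0.38.

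EGR3, a relative of EGR1 that is induced by neuronal activity, was near the limit of detection with 7 to 26 counts per library. It had 0.823, 0.659 and 0.767 CPM in sh1, 0.714, 1.18 and 0.420 CPM in sh4, and 1.44, 0.853 and 1.06 CPM in NC. The sh1 libraries lay just under NC and the sh4 libraries overlapped with it. Neither log2 fold change passed, -0.57 in sh1 with a 95% interval of -1.46 to 0.33 and -0.53 in sh4 with one of -1.43 to 0.38 (edgeR adjusted p = 0.272 and 0.271).

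IER2, a nuclear protein of the immediate early response, had 79.6, 82.5 and 74.4 CPM in sh1, 59.9, 66.9 and 60.7 CPM in sh4, and 98.9, 87.7 and 82.4 CPM in NC. The sh4 libraries lay under both other groups, and sh1 overlapped with NC by a single library. The log2 fold changes were -0.19 in sh1 (edgeR adjusted p = 0.0899) and -0.52 in sh4 (edgeR adjusted p = 0.000341), the second under the fold threshold. An antisense gene covers 30.8% of the exon bases of IER2, so its reads may include that gene's.

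**Figure D1:**
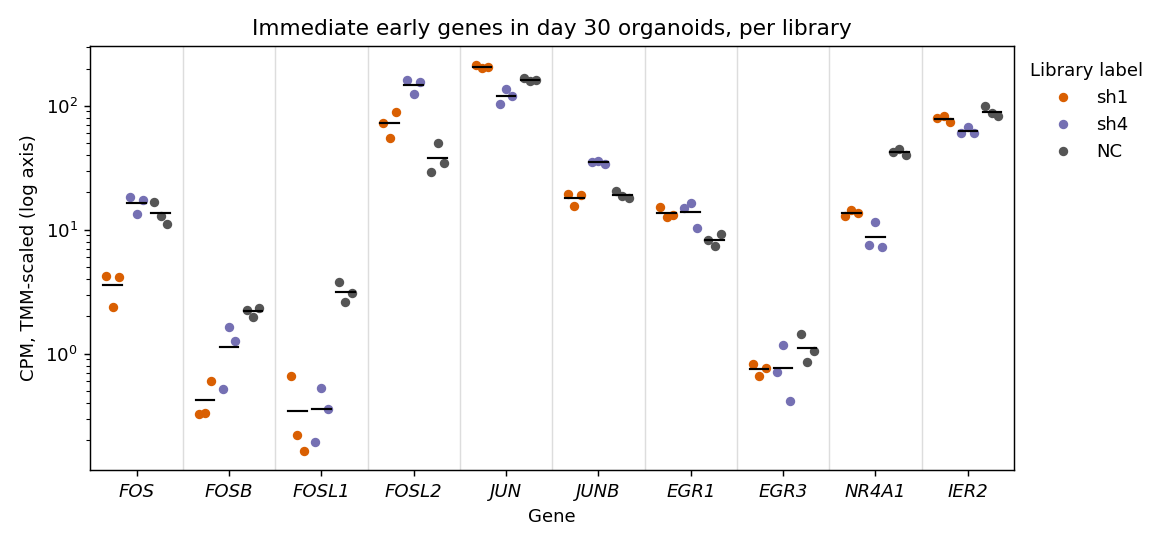
Level of each of the 10 genes in the 9 day 30 organoid libraries, in TMM-scaled CPM on a log axis. Points are libraries, coloured by label (sh1, sh4, NC), and bars are group means. In every library, FOSB, FOSL1 and NR4A1 sit under NC with both hairpins, and FOS and EGR3 with sh1 alone. FOSL2 and EGR1 sit above NC with both. With sh4 alone IER2 sits under NC and JUNB above it. JUN sits above NC with sh1 and under it with sh4.

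Counted by libraries, 3 of the 10 genes had every sh1 library above every NC library (32.3% of all genes tested) and 5 had every sh1 library under it (29.8%). With sh4 the counts were also 3 above (36.6%) and 5 under (36.4%). With 10 genes, none of these counts is far from the share over all genes. Within groups, sh4 replicate 2 was the highest for 8 of the 10 and sh1 replicate 2 the lowest for 6.

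The same organoids differed in the markers of many cell types. Mesenchyme markers (9 of 9 called higher with each hairpin) summed to 22150 to 25110 CPM in sh1 and 41726 to 51246 in sh4, against 3120 to 4604 in NC. Neural progenitor markers were called lower for 7 of 10 in sh1 and 8 in sh4, with 1 called higher in sh4. They summed to 2685 to 2808 CPM in sh1 and 1285 to 1707 in sh4, against 3128 to 3613 in NC. Most of this sum is VIM (2154 CPM in sh1, 1252 in sh4 and 2109 in NC on average). VIM stood at 0.03 in sh1 and -0.75 in sh4, not called. The median log2 fold change of the 10 markers was -1.78 in sh1 and -3.73 in sh4, against 0.02 and -0.01 over all organoid genes. Neuron markers (1 of 9 tested lower in sh1, 8 in sh4) summed to 1239 to 1692 CPM in sh1 and 239 to 914 in sh4, against 2980 to 3223 in NC, and NEUROD6 was at 0 in every sh1 and sh4 library. In bulk RNA, fewer cells of a type and less RNA per cell cannot be told apart. The part of cell makeup in the changes of the 10 genes was not tested.

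Other lists moved as well. Pluripotent cell markers (7 of 7 lower with each hairpin) summed to 71.5 to 77.8 CPM in sh1 and 71.5 to 97.6 in sh4, against 674 to 965 in NC, and PRDM14 was at 0 in sh4. Choroid plexus markers (5 of 6 higher with each) summed to 911 to 2027 CPM in sh1 and 4135 to 8998 in sh4, against 121 to 255 in NC. Microglia and macrophage markers (6 of 7 higher in sh1, 7 in sh4) summed to 9.45 to 30.4 CPM in sh1 and 83.6 to 172 in sh4, against 1.76 to 4.25 in NC, where C1QA and C1QB were at 0. Endothelium and blood markers (2 of 6 higher in sh1, 4 higher and 1 lower in sh4) summed to 122 to 203 CPM in sh1 and 436 to 628 in sh4, against 131 to 172 in NC. Muscle markers (2 of 4 tested higher and 1 lower with each, MYOD1 at 0 in sh4) summed to 64.4 to 75.7 CPM in sh1 and 142 to 150.3 in sh4, against 16.7 to 17.7 in NC. Epithelium markers (none called in sh1, 5 of 6 higher in sh4) summed to 537 to 733 CPM in sh1 and 2049 to 2746 in sh4, against 814 to 937 in NC.

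In the NPCs, whose table was already selected, 1 of the 6 listed genes was called with sh1, FOSB, which rose; 6.31% of the 9860 genes tested were called higher and 12.1% lower. With sh4, FOSB rose and FOSL2 fell, where 6.55% of all genes were called higher and 11.6% lower. The comparisons share the 5 NC libraries. The median log2 fold change of the 6 genes was -0.01 in sh1 and 0.48 in sh4, against 0.11 and 0.03 over all genes tested. An adjusted p under 0.05 alone was reached by 88% of all genes in sh4. Between sh1 and sh4 NPCs, FOSB was called lower in sh1 (2.42% of all genes) and none of the 6 higher (2.18%) in edgeR or DESeq2. FOSL2 was higher in sh1 at an edgeR adjusted p under 0.05, short of the fold threshold. JUNB (log2 difference -0.73) and NR4A1 (log2 difference -0.30, edgeR adjusted p = 0.00244) were lower in sh1 in the same way. In either direction 4.6% of all genes were called, and 27.6% had an adjusted p under 0.05.

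FOSB in the NPCs had 1.74, 1.98, 1.90, 2.82 and 1.75 CPM in sh1 and 3.96, 4.14, 4.24, 4.43 and 4.80 CPM in sh4, against 1.04, 0.669, 0.946, 0.607 and 0.835 CPM in NC. The 3 groups did not overlap, and the counts behind them were 26 to 55, 72 to 89 and 11 to 20 per library in sh1, sh4 and NC. The log2 fold changes were 1.32 in sh1 (SE 0.189, edgeR adjusted p = 3.00e-06) and 2.39 in sh4 (SE 0.171, edgeR adjusted p = 2.11e-10). Sh1 lay 1.07 under sh4 (log2 difference -1.07, edgeR adjusted p = 9.87e-06).

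FOSL2 had 59.4, 48.8, 56.5, 51.8 and 48.4 CPM in sh1 NPCs and 50.3, 37.6, 34.0, 43.8 and 40.2 CPM in sh4 NPCs, against 102, 94.4, 104, 100.2 and 93.6 CPM in NC NPCs. Every NC library was above every library of either hairpin. The log2 fold change was -1.26 in sh4 (SE 0.084, edgeR adjusted p = 7.31e-11). In sh1 it was -0.90 (SE 0.083, edgeR adjusted p = 7.93e-09), short of the fold threshold, and -1.04 with library size in place of TMM.

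FOSL1 had 12.7, 10.2, 12.5, 11.2 and 10.8 CPM in sh1 and 16.6, 14.1, 12.7, 15.0 and 11.8 CPM in sh4, against 8.19, 7.26, 9.68, 7.01 and 3.97 CPM in NC. No library of either hairpin overlapped with NC. The log2 fold changes were 0.68 in sh1 (edgeR adjusted p = 0.000590) and 0.97 in sh4 (SE 0.157, edgeR adjusted p = 1.22e-05), both under the threshold, which the sh4 value passed at 1.01 to 1.09 without sh4 replicate 3 or 5 or NC replicate 1 or 3.

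NR4A1 had 39.5, 35.2, 41.2, 43.6 and 47.7 CPM in sh1 and 50.1, 54.4, 47.0, 51.9 and 51.5 CPM in sh4, against 31.6, 34.8, 34.5, 32.7 and 32.9 CPM in NC. All libraries of either hairpin were above all NC libraries, by a narrow margin in sh1. Its log2 fold changes were 0.32 in sh1 and 0.61 in sh4 (edgeR adjusted p = 0.000331 and 1.27e-07), under the fold threshold. A long noncoding gene on the other strand covers 10.3% of its exon bases.

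JUN had 93.5, 72.2, 94.995, 86.6 and 78.2 CPM in sh1 and 103, 96.2, 95.6, 87.0 and 87.3 CPM in sh4, against 123, 110.1, 117, 99.8 and 86.8 CPM in NC. The groups overlapped, and the log2 fold changes were -0.34 in sh1 and -0.19 in sh4 (edgeR adjusted p = 0.00154 and 0.0454). JUNB had 16.3, 14.4, 20.7, 19.2 and 18.6 CPM in sh1 and 29.3, 31.4, 21.3, 32.8 and 33.4 CPM in sh4, against 29.8, 22.2, 26.1, 21.2 and 17.5 CPM in NC. Both hairpins overlapped with NC, on opposite sides of it on average, at -0.38 in sh1 and 0.34 in sh4 (edgeR adjusted p = 0.0132 and 0.0230). With library size in place of TMM, JUNB stood at -0.52 in sh1 and 0.20 in sh4 (edgeR adjusted p = 0.00206 and 0.184). For JUNB, sh1 lay under sh4 in every library (log2 difference -0.73, edgeR adjusted p = 0.000397).

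**Figure D2:**
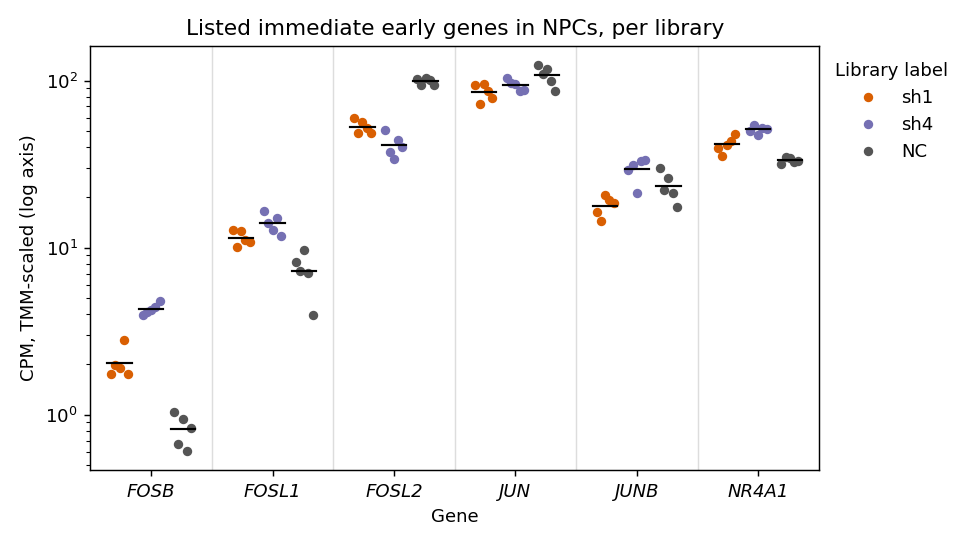
Level of the 6 listed genes in the 15 NPC libraries, in TMM-scaled CPM of the listed genes on a log axis. Points are libraries, coloured by label (sh1, sh4, NC), and bars are group means. FOSB rises in 2 steps over NC, FOSL2 lies under NC with both hairpins, and JUN and JUNB overlap with NC.

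By libraries, 3 of the 6 genes lay wholly above NC in sh1 (37% of all genes tested) and 1 wholly under it (39.6%), and sh4 gave the same counts (36.6% and 36.2%). NC replicate 5 was the lowest of its group for 4 of the 6 genes. Neural progenitor markers in the NPC table, 7 of 10 listed and 6 tested (3 called higher in sh1, 3 higher and 1 lower in sh4), summed to 1931 to 2218 CPM in sh1 and 2769 to 3316 in sh4, against 2279 to 2471 in NC. Most of this sum is NES (1768 CPM in sh1, 2694 in sh4 and 2149 in NC on average, with log2 fold changes of -0.28 and 0.33, not called). Pluripotent cell markers, all 7 listed with 5 called higher and 1 lower with each hairpin, summed to 1651 to 1761 CPM in sh1 and 1503 to 1599 in sh4, against 998 to 1080 in NC. Mesenchyme markers, 7 of 9 listed (1 called higher in sh1, 5 in sh4), summed to 5536 to 6765 CPM in sh1 and 6579 to 7480 in sh4, against 7139 to 7800 in NC. That sum is mostly COL3A1, a collagen gene (4230 CPM in sh1, 4508 in sh4 and 6157 in NC on average; log2 fold changes of -0.54 and -0.45, not called). The median over the 7 mesenchyme markers was 0.81 in sh1 and 1.26 in sh4, against 0.11 and 0.03 over all NPC genes, and LUM, a matrix proteoglycan gene, rose with each hairpin (1.47 and 3.67).

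Of the other types in the NPC table, endothelium and blood markers (5 tested; 2 called higher and 2 lower in sh1, 1 higher and 2 lower in sh4) summed to 131 to 151 CPM in sh1 and 99.5 to 154 in sh4, against 51.6 to 62.0 in NC. Muscle markers (2 of 4 higher in sh1, 1 in sh4) summed to 18.9 to 26.1 CPM in sh1 and 17.8 to 28.7 in sh4, against 10.9 to 15.1 in NC. Choroid plexus markers (4 tested; 1 higher in sh1, 2 higher and 1 lower in sh4) summed to 103 to 108 CPM in sh1 and 74.3 to 83.6 in sh4, against 111 to 119.6 in NC. Both hairpins thus lay apart from NC in these 3 sums, under it for choroid plexus and above it for the others. The choroid plexus sum is mostly OTX2 (90.8 CPM in sh1, 45.8 in sh4 and 109 in NC on average). OTX2 stood at -0.26 in sh1, not called, and was called lower in sh4 (-1.25), while CLIC6 was called higher with each hairpin (2.50 and 2.44). Neuron markers (2 of 6 lower in sh1) overlapped with NC with each hairpin, at 2192 to 2491 CPM in sh1 and 2589.97 to 2720.4 in sh4, against 2090 to 2669.9 in NC. Epithelium markers (5 tested, 2 higher and 1 lower in sh1, 1 lower in sh4) overlapped with NC in sh4 alone, at 242 to 276 CPM in sh1 and 189 to 249 in sh4, against 184 to 206 in NC. None of the listed markers was at 0 in a whole group, and the part of cell makeup in the changes was not tested.

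Whether a change differed between the systems was tested as the mean of both hairpins over NC in organoids minus the same in NPCs. The NPC table was already selected, so having a row there may itself depend on a change in the NPCs. How far that selection enters these differences was not tested. Of 10020 genes in both tables, 78.6% passed an adjusted p under 0.05, and 5 of the 6 listed genes did. FOSL1 stood at -3.14 in organoids and 0.83 in NPCs on the log2 scale, a difference of -3.97 (SE 0.354, edgeR adjusted p = 3.56e-10). FOSB stood at -1.65 in organoids and 1.87 in NPCs, a difference of -3.51 (SE 0.326, edgeR adjusted p = 7.11e-10). All 4 genes with differences of this size, these and the 2 that follow, had opposite signs in the systems.

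NR4A1 stood at -1.95 in organoids and 0.48 in NPCs, a difference of -2.42 (SE 0.125, edgeR adjusted p = 2.27e-14). FOSL2 ran the other way, 1.44 in organoids and -1.07 in NPCs, a difference of 2.51 (SE 0.186, edgeR adjusted p = 1.30e-11). Each of the 4 also differed with sh1 alone and with sh4 alone, by -3.72 and -3.31 for FOSB, -3.88 and -4.06 for FOSL1, -1.97 and -2.87 for NR4A1, and 1.80 and 3.22 for FOSL2. JUNB differed by 0.40 (SE 0.184, edgeR adjusted p = 0.0481), a call lost in 18 of 24 fits that left out a library. JUN differed by 0.21 as the mean of both hairpins (SE 0.122, edgeR adjusted p = 0.115). With sh1 alone JUN differed by 0.66 (edgeR adjusted p = 0.000219), and with sh4 alone by -0.23 (edgeR adjusted p = 0.136), on opposite sides of that mean. For JUNB the difference was 0.27 with sh1 alone (edgeR adjusted p = 0.266) and 0.54 with sh4 alone (edgeR adjusted p = 0.0214). KDM2A itself differed by 1.05 (edgeR adjusted p = 1.98e-11), being 0.07 in organoids and -0.98 in NPCs.

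**Figure D3:**
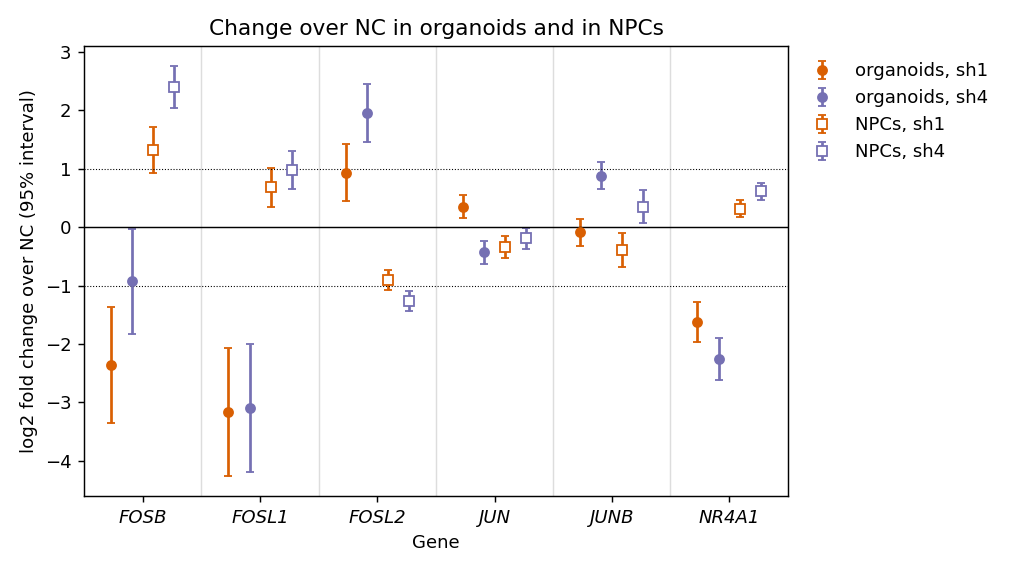
Log2 fold change over NC of the 6 genes listed in both tables, with 95% intervals from edgeR, for organoids labelled sh1 and sh4 (filled circles) and NPCs with sh1 and sh4 (open squares). Dotted lines mark the fold threshold of 1 on the log2 scale. FOSB, FOSL1 and NR4A1 lie under 0 in organoids and above 0 in NPCs, and FOSL2 the reverse.

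Because FOS family members compete for the same JUN partners, their levels were also compared per kilobase of exon, which allows comparison between genes. FOSL2 made up 88.1 ± 2.23% of the family's summed CPM per kb in sh1 organoids and 79.0 ± 0.312% in sh4 organoids, against 45.4 ± 9.86% in NC organoids (SD, n = 3 each). FOS made up 9.59 ± 1.28% in sh1 and 19.4 ± 0.653% in sh4, against 36.4 ± 6.80% in NC. FOSL1 made up 1.64 ± 1.19% and 0.775 ± 0.459%, against 14.7 ± 3.36%, and FOSB 0.657 ± 0.142% and 0.832 ± 0.506%, against 3.45 ± 0.651%, for sh1, sh4 and NC in that order. The sum itself was 11.4 ± 2.72 CPM per kb in sh1 and 25.997 ± 3.40 in sh4, against 11.6 ± 1.21 in NC. The sum in sh1 organoids overlapped with NC, while in sh4 it was above NC in every library.

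In the NPCs the sum covers FOSB, FOSL1 and FOSL2, without FOS. FOSL2 made up 53.4 ± 0.733% in sh1 and 41.1 ± 2.32% in sh4, against 78.0 ± 4.52% in NC (SD, n = 5 each). FOSL1 made up 43.9 ± 0.843% in sh1 and 53.2 ± 2.56% in sh4, against 21.2 ± 4.56% in NC, and FOSB 2.67 ± 0.649% and 5.65 ± 0.943%, against 0.831 ± 0.169%. The sums were 13.8 ± 1.23, 14.0 ± 1.74 and 17.8 ± 1.71 CPM per kb in sh1, sh4 and NC. The share of FOSL2 was thus above NC in organoids and under it in NPCs with either hairpin, without overlap of libraries.

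JUN made up 85.6 ± 1.15% of JUN plus JUNB per kb in sh1 organoids and 63.6 ± 2.91% in sh4 organoids, against 81.4 ± 0.849% in NC organoids. In the NPCs its share was 71.0 ± 2.42% in sh1 and 62.1 ± 5.17% in sh4, against 70.4 ± 1.58% in NC. In both systems sh4 thus had the largest share of JUNB in JUN plus JUNB on average. JUND, a further JUN gene described below, is not part of this sum.

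**Figure D4:**
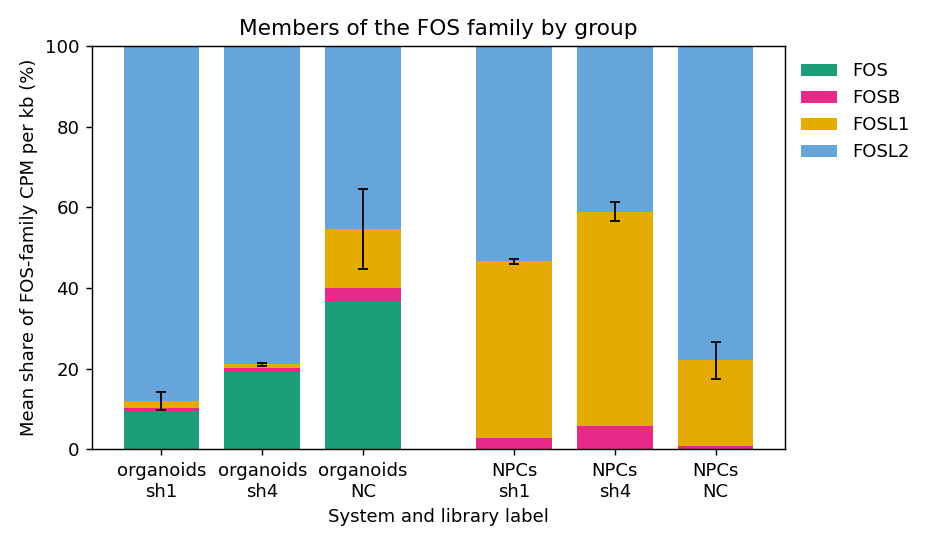
Mean share of each FOS-family gene in the family's summed CPM per kb, in percent, by system and label (3 libraries per organoid group, 5 per NPC group). Error bars are the SD of the FOSL2 share. FOS has no row in the NPC table, so NPC bars hold 3 genes. FOSL2 takes 88.1% and 79.0% in sh1 and sh4 organoids against 45.4% in NC, and 53.4% and 41.1% in sh1 and sh4 NPCs against 78.0% in NC.

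Ordered by level per kb in NC organoids, the genes ran JUN at 45.8 CPM per kb, IER2 at 29.2, JUNB at 10.5, NR4A1 at 5.79, FOSL2 at 5.30, FOS at 4.22, EGR1 at 2.63, FOSL1 at 1.68, FOSB at 0.395 and EGR3 at 0.230. Neighbours overlapped in their libraries for NR4A1 with FOSL2 and for FOSL2 with FOS alone. In sh1 organoids FOSL2 stood in place 3 (10.1 CPM per kb), overlapping with JUNB (9.85), and FOSB in the last place (0.0757). In sh4 organoids FOSL2 (20.5), IER2 (20.3) and JUNB (19.3) followed JUN (33.9) and overlapped as neighbours. In the NPCs JUN led every group, at 24.0 CPM per kb in sh1, 26.5 in sh4 and 30.4 in NC, and FOSB was last, at 0.367, 0.777 and 0.148.

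For each called gene, the 3 genes with the nearest profile were found by the root mean square difference of log2 CPM over the libraries, each gene centred on its own mean, among genes of at least 3 mean log2 CPM. Over the 9 organoid libraries and 11756 genes, NR4A1 was nearest to CCSAP (0.0804), HMGA1 (0.135) and SEMA6A (0.146), where NR4A1 itself spread by 0.974 around its mean. FOSL2 was nearest to NHERF1 (0.1005), IRF1 (0.139) and TSPAN15 (0.152), and FOS to F11R (0.255), CTSV (0.256) and CLDN6 (0.264). The scarcer genes had looser neighbours: FOSB had JPH1 (0.468), UPP1 (0.469) and ZFP42 (0.499), and FOSL1 had NRXN3 (0.385), COPG2IT1 (0.477) and DNMT3B (0.485). Over the 15 NPC libraries and 7874 genes, FOSB was nearest to CPNE4 (0.244), SLC15A3 (0.277) and DPYSL3 (0.280), and FOSL2 to ERBB4 (0.111), CPT1C (0.112) and HSD17B14 (0.114). No gene was named near both FOSB profiles or both FOSL2 profiles. With 3 genes kept per profile out of 11756 and 7874, a shared name was not to be expected. Whether the neighbours differ between the systems was not tested.

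Other members of the AP-1 family were described in the same way. In the organoids 15 of 16 were tested, with 2 called higher and 3 lower in sh1 and 4 higher and 4 lower in sh4 (all genes 12.1% and 7.92%, and 20% and 15.5%), and median log2 fold changes of -0.30 and -0.15 (0.02 and -0.01 over all organoid genes). ATF3, a stress-induced partner of JUN proteins, averaged 18.8 ± 1.43 CPM in sh1 and 19.4 ± 1.498 in sh4, against 51.4 ± 8.79 in NC (SD, n = 3 each), and fell with each (log2 fold change -1.45 and -1.40). The small MAF proteins MAFF (-2.58 in sh1, -2.03 in sh4) and MAFG (-1.005 and -1.04) fell too, and MAF, a large MAF factor, rose (1.81 and 2.74). JUND, the JUN gene that responds least to signals, averaged 45.9 ± 5.26 CPM in sh1 and 29.1 ± 0.631 in sh4, against 83.0 ± 3.42 in NC, at -0.85 in sh1, not called, and -1.51 in sh4, called lower. JDP2, a repressor that dimerizes with JUN, was at 0.30 in sh1, not called, and rose in sh4 at 1.22. BATF, a partner of JUN proteins in immune cells, averaged 0.0548 CPM in sh1 and 1.28 in sh4, against 0.0195 in NC, and was called higher in sh4.

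In the NPCs 10 of the 16 were listed and tested. With sh1 3 were called lower (12.1% of all genes) and with sh4 2 (11.6%), and the medians were -0.42 and -0.43 (0.11 and 0.03 over all NPC genes). The highest log2 fold change of the 10 was 0.33 in sh1 and 0.37 in sh4. ATF3 averaged 72.0 ± 5.82 CPM in sh1 and 74.2 ± 9.56 in sh4, against 159 ± 19.6 in NC (SD, n = 5 each), and fell with each (log2 fold change -1.14 and -1.09). BATF2 fell as well (-1.85 in sh1 and -1.35 in sh4, under 1 CPM in every group mean), and MAFK fell in sh1 (-1.32) and stood at -0.61 in sh4, not called. ATF3 was the family member named here that fell in all 4 comparisons with NC.

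Of 34 further immediate early genes, 33 were tested in the organoids, with 3 called higher and 5 lower in sh1 and 7 higher and 3 lower in sh4, and medians of -0.19 and 0.22. Over all organoid genes 12.1% were called higher and 7.92% lower in sh1, and 20% and 15.5% in sh4. Those that fell with each hairpin included ARC, a synaptic gene of neuronal activity, at 1.77 ± 0.310 CPM in sh1 and 0.976 ± 0.890 in sh4 against 7.21 ± 0.944 in NC, and IER5 (-1.03 in sh1, -1.17 in sh4). NPAS4, another activity gene, averaged 0.0183 CPM in sh1 and 0.0784 in sh4, against 1.57 in NC, and was called lower with each. SGK1, a kinase, rose with each (1.08 and 1.73), and IER3 (0.74 and 1.68), NFKBIA (0.53 and 1.07), CSRNP1 (0.46 and 1.43) and MYC (0.82 and 1.28) were called higher in sh4 alone.

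In the NPCs 17 of the 34 were listed and tested, with 2 called higher and 3 lower in sh1 and 4 higher and 3 lower in sh4, and medians of -0.45 and -0.10. Over all NPC genes 6.31% were called higher and 12.1% lower in sh1, and 6.55% and 11.6% in sh4. SGK1 rose here too (1.12 in sh1, 1.58 in sh4). EGR2, a relative of EGR1 and EGR3, averaged 4.49 ± 0.615 CPM in sh1 and 11.1 ± 0.774 in sh4, against 2.70 ± 0.206 in NC, at 0.72 in sh1, not called, and 2.03 in sh4, called higher. IER3 followed the same steps (0.77 and 1.41). MYC (-2.67 and -2.41), KLF4 (-2.93 and -2.69) and PPP1R15A (-2.10 and -1.89), a phosphatase subunit of the stress response, fell with each hairpin.

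The next list holds factors and kinases that switch these promoters on. In the organoids all 22 were tested, 1 called higher and 1 lower in sh1 (12.1% and 7.92% of all genes) and 4 higher and 3 lower in sh4 (20% and 15.5%), with medians of -0.01 and -0.05. ELK4, a cofactor of serum response factor, fell (-1.14 in sh1, -1.45 in sh4), and ELK3, a related factor that can repress, rose (1.504 and 1.17). The kinase genes MAPK8 (-0.39 and -1.11) and MAPK10 (-0.28 and -1.19) were called lower in sh4 alone, and RPS6KA4 (0.77 and 1.75) and RPS6KA5 (0.11 and 1.10) higher in sh4 alone. The 13 listed in the NPCs spanned log2 fold changes of -0.59 to 0.89 in sh1 and -0.61 to 0.67 in sh4, short of the fold threshold. Corepressors of EGR factors and of AP-1 spanned -0.45 to 0.65 in sh1 and -0.86 to 0.85 in sh4 over 7 genes in the organoids, and -0.32 to 0.48 in sh1 and -0.13 to 0.65 in sh4 over 5 genes in the NPCs.

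Of the known target genes of AP-1 or EGR1, 19 were tested in the organoids. Of these, 9 were called higher and 2 lower in sh1, where 12.1% of all genes were called higher and 7.92% lower, and 12 were called higher in sh4, where 20% of all genes were. The medians were 0.25 and 1.49, against 0.02 and -0.01 over all genes. TIMP1, an inhibitor of matrix proteases, averaged 146 ± 21.2 CPM in sh1 and 556 ± 51.0 in sh4, against 57.2 ± 3.52 in NC, and rose with each (1.35 and 3.28). The matrix protease MMP14 (1.37 and 1.67) and the urokinase receptor PLAUR (1.12 and 2.32) rose too, while PLAU, urokinase itself, fell in sh1 (-2.46) and stood at 0.25 in sh4, not called. HMOX1 (-0.98 in sh1, not called) and FN1 (0.25 in sh1, not called) rose in sh4 (1.36 and 1.09). IL6, a cytokine, averaged 0.0914 CPM in sh1 and 1.18 in sh4, against 0.127 in NC, and was called higher in sh4. The summed mesenchyme markers given above were higher in the same libraries, by far the most in sh4, and their part in this list was not tested.

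In the NPCs 14 of the targets were tested, with 4 called higher and 2 lower in sh1 and 6 higher and 1 lower in sh4 (all genes 6.31% and 12.1%, and 6.55% and 11.6%), and medians of 0.27 and 0.73. TGFB1, a growth factor, averaged 27.7 ± 4.07 CPM in sh1 and 59.9 ± 7.29 in sh4, against 10.5 ± 0.986 in NC, and rose with each (1.40 and 2.51). MMP2 (1.53 and 1.70) rose with each hairpin and EGFR (-1.16 and -1.16) fell with each. CCND1 rose in sh1 (1.41) and stood at 0.68 in sh4, not called, and TIMP1 (0.56 and 1.27), PLAUR (0.999 and 1.198) and FN1 (0.17 and 1.48) were called in sh4 alone. The median mesenchyme marker given above was higher in the same NPC libraries, while COL3A1 and with it the sum were not, and their part in this list was not tested.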

How the data were processed

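The authors deposited 1 table of expected counts per system, made with featureCounts and STAR on GRCh38.p13, per the submitters' processing notes. Versions and strand settings are not given in the sources used here. Of the deposited values, 82.4% in the NPC table and 91.0% in the organoid table were whole to within 1e-09, and all were rounded to whole numbers. Genes passed filterByExpr (minimum count 10), which kept 9860 NPC and 19704 organoid genes, and TMM scaling. Each system was fitted with its 3 groups and tested with edgeR 4.0.16 (quasi-likelihood test, R 4.3.3), with Benjamini-Hochberg adjustment over all genes tested. The thresholds are those of the series' design text. Differences between systems were fitted over all 6 groups on genes of both tables. DESeq2 1.42.0 was an alternative. Exon lengths came from GENCODE 29 on GRCh38. Every pair of replicates differed beyond sampling noise, with a chi-square of at least 2.60 for each degree of freedom. From each list, up to 4 genes called with both hairpins and 4 called with 1 were named, by smallest adjusted p, except 1 target gene that is counted but not reported here by name. The members and lists were chosen with earlier results of these data known.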

Additional observations from a re-analysis of the deposited data

Results flagged for a closer look

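FOSB in NPC sh1 replicate 4, at 2.82 CPM, stood apart from the other 4 libraries of its group, which had 1.74 to 1.98 CPM. It was the 1 of 18 groups of 5 libraries in which a library stood this far out, and chance gives about 1 in 20. Without it FOSB was still called higher in sh1 NPCs.

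For 5 genes the change over NC differed between organoids and NPCs, by edgeR's test of the difference itself (organoids minus NPCs, log2, mean of both hairpins). The differences were -3.51 for FOSB, -3.97 for FOSL1, 2.51 for FOSL2, -2.42 for NR4A1 and 0.40 for JUNB. Of all genes in both tables, 78.6% passed the same test. KDM2A, lower in the NPCs with each hairpin and not in the organoids, differed too, and the NPC levels are relative to the listed genes. The part of cell makeup or of the selected NPC table in these differences was not tested.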

How the results depend on the processing

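Alternatives were DESeq2 size factors, library size alone, no filter, DESeq2's test, a fit of only the groups compared, a replicate block and each library left out. With library size alone the median of all genes shifted by -0.14 (NPC sh1), -0.14 (NPC sh4), -0.27 (organoid sh4) and 0.23 (organoid sh1 over sh4). The share of calls that were higher became 23.7% (34.3% with TMM) in NPC sh1, 43.3% (56.4%) in organoid sh4 and 57.3% (41.2%) in organoid sh1 over sh4. That scaling called 2 of the 6 genes in NPC sh1 in place of 1, and turned the sign of 5 values: in organoid sh1 over sh4 EGR1 to 0.22, EGR3 to 0.18 and FOSL1 to 0.15, and in organoid sh4 over NC FOS to -0.0203 and KDM2A to -0.27, none of them called. The NPC sh1 median was also negative without a filter (-0.13) and with DESeq2's test (-0.14), which was run without that filter too.

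Leaving out a library gave 1 to 4 called genes of the 10 in organoid sh1 over sh4 (3 with all libraries; 1 without sh1 replicate 2 or without sh4 replicate 3, FOS). It also turned the sign of uncalled values: JUNB in organoid sh1 (-0.14 to 0.00945), EGR1 (-0.19 to 0.12), EGR3 (-0.34 to 0.41) and FOSL1 (-0.90 to 0.31) in organoid sh1 over sh4, and KDM2A in organoid sh4 (-0.0224 to 0.0501). Members called in the other comparisons ranged over 4 to 5 and 3 to 4 in organoid sh1 and sh4, and 1 and 2 to 3 in NPC sh1 and sh4. Counts of all genes called stayed within 1.5 times throughout. The difference of JUNB between systems had an adjusted p of 0.0636 with DESeq2 size factors, 0.0619 without a filter and 0.0576 with DESeq2. Where values changed, the cause was not tested.

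Replicate numbers recur across groups. Deviations of libraries with the same number correlated at -0.16 to 0.04 in organoids and -0.10 to 0.39 in NPCs, where numbers 1 and 5 were at 0.18 to 0.39 in each pair of groups and 7 of 10 sh4 and NC libraries correlated best with their own number. No pair of groups had every number over 0.1, so the numbers were not taken as pairs. With the replicate block 1818 and 1789 genes were called in NPC sh1 and sh4 and 3771 and 6899 in organoid sh1 and sh4, and JUNB's difference between systems missed the threshold at 0.40 (adjusted p = 0.0646). Levels not divided by length put NR4A1, FOSL2 and JUNB in places 3, 4 and 5 in NC organoids. Depth limits FOSB, FOSL1 and EGR3 in the organoids, at 3 to 69 counts a library.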
